A study of Homo sapiens with 12 samples.

Results

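The genes described here encode splicing factors and heterogeneous nuclear ribonucleoproteins (hnRNPs), the proteins that package nascent transcripts and remove their introns. They were taken from the gene symbols of the count table: all symbols that begin with HNRNP, SF3A or SF3B and a number, SNRP or U2AF, the numbered SRSF genes, and PCBP1 to PCBP4. The table lists 25370 genes, of which 70 matched. Left out were 5 pseudogenes (HNRNPA1P10, HNRNPA1P33, HNRNPA3P1, HNRNPKP3 and SNRPD2P2) and 1 antisense gene (HNRNPU-AS1), which left 64 genes: 24 hnRNP genes, 4 PCBP genes, 12 SR protein genes, 3 U2AF genes, 9 genes of the SF3a and SF3b complexes and 12 genes of small nuclear ribonucleoprotein (snRNP) proteins. The rule reads symbols alone, though it was set with earlier results of these data known.

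RNA-seq was done on T47D, an estrogen receptor-positive luminal breast cancer cell line, in 12 libraries, 3 in each of 4 groups. The groups were vehicle, anastrozole at 10 nM, estradiol (E2) at 0.1 nM, and anastrozole at 10 nM with E2 at 0.1 nM. All cells, controls included, had first been kept for 48 hours in 5% charcoal-stripped serum and for 24 hours without serum. The labels give 12 hours of treatment and the study's methods a longer time, so the exposure is not settled here. Anastrozole blocks aromatase, which turns androgens into estrogens, and E2 is the main ligand of the estrogen receptor. The comparisons ask what each agent did to these genes alone, what they did together, and whether the effect of one changed with the other. The labels do not state that the 3 libraries of a group came from separate cultures, so the p-values measure only the spread between these libraries. The cells are 1 established line, and in bulk RNA a lower level per cell and fewer cells with the transcript cannot be told apart.

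An intron is removed in steps that these families share. U1 snRNP marks the start of the intron, the U2AF dimer reads the pyrimidine tract and the AG at its end, and U2 snRNP, with its SF3a and SF3b parts, grips the branch point. A ring of Sm proteins, encoded by several SNRP genes, holds the U1, U2, U4 and U5 RNAs. SR proteins bind exons and favour their inclusion, hnRNPs often do the reverse, and the PCBP proteins bind C-rich RNA through KH domains like those of hnRNP K. Nearly all dividing cells use these genes heavily, and several make proteins that regulate their own splicing.

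Total counts on genes ranged from 9914253 to 17009776 per library, and 3 counts, the floor used for a gene that is not detected, correspond to 0.177 to 0.303 CPM, the count scaled to a common library size. The 8 luminal markers were abundant in all libraries, with ESR1, the estrogen receptor gene, at 163 to 188 CPM. Of 12 markers of other cell types, 10 had at most 9 counts in any library, TP63 lay at 1.05 to 2.33 CPM, and COL1A1 at 80 to 99.9 CPM. Libraries differed in how their levels related to transcript GC content: the rank correlation across genes between a library's deviation from the mean and GC was 0.47, 0.06 and 0.46 in vehicle a, b and c, -0.62, -0.38 and 0.27 in anastrozole a, b and c, between -0.51 and -0.33 in E2, and between 0.35 and 0.41 in the combination. Anastrozole c stood apart from its group on this measure, and the pair anastrozole a and c differed most among replicates (chi-square per degree of freedom 4.83, other pairs 1.28 to 2.65). Counts of calls with anastrozole are therefore also given without that library, as are the differences of the genes called with anastrozole against vehicle. For fits that left out a library the share of all genes called is not given, so those counts are not read as results about these genes. The sizes of the interactions, the relation to GC content, the values with GC trends removed and a further list of splicing genes are given with all libraries.

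Together the 64 genes held 1.20% ± 0.00755 (SD, n = 3) of the counts in vehicle cells, 1.17% ± 0.0338 with anastrozole, 1.18% ± 0.00819 with E2 and 1.18% ± 0.0119 with both. The 3 genes HNRNPCL1, HNRNPCL2 and HNRNPUL2-BSCL2 had 0 counts in all libraries and were not tested. HNRNPH2, PCBP3, SNRPN and SRSF12 had at most 5 counts in any library and no value is read from them. Thus 61 genes were tested, and 55 averaged at least 3 on the log2 CPM scale. HNRNPH2, SNRPN and HNRNPUL2-BSCL2 share 15.8%, 55.4% and 59.8% of their transcript's bases with RPL36A-HNRNPH2, SNURF and HNRNPUL2 on the same strand. Reads on more than 1 gene were set aside in the counting, so such low counts do not show that a gene is silent.

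Levels were compared between genes as CPM per kilobase (kb) of the canonical transcript. HNRNPA2B1, which binds UAG-containing RNA, had the highest level of the hnRNP genes, with 371 ± 4.68 CPM per kb in vehicle cells (SD, n = 3). HNRNPK followed with 254 ± 4.74 and HNRNPF with 225 ± 2.03. HNRNPC, at 168 ± 6.19, and HNRNPH1, at 160 ± 1.17, differed by little more than the SD of HNRNPC and cannot be ordered firmly. HNRNPM with 84.1 ± 1.14 and HNRNPAB with 82.4 ± 2.93 likewise overlapped in their spread.

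Among the other families the highest levels per kb in vehicle cells belonged to SNRPB (188 ± 12.3), SRSF5 (166 ± 4.04), PCBP2 (157 ± 2.46), SF3B6 (82.6 ± 5.82) and U2AF1 (73.8 ± 3.3). SF3B2, with 81.8 ± 1.43, did not differ from SF3B6 beyond the spread. SRSF2 (155 ± 1.64) and SRSF9 (154 ± 5.77) were also tied, whereas PCBP1 (101 ± 2.53) lay well below PCBP2. Genes on the opposite strand share bases with the transcripts of all of these, as given below. If strand was not used in the counting, these levels may be too low by unlike amounts, which was not tested. HNRNPA1, at 13 ± 0.344 CPM per kb, was low for a gene known to be abundant. The annotation lists 74 pseudogenes of it, more than for any other of these genes, and reads that match several places were not counted. The part of this in its level was not tested.

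**Figure D1:**
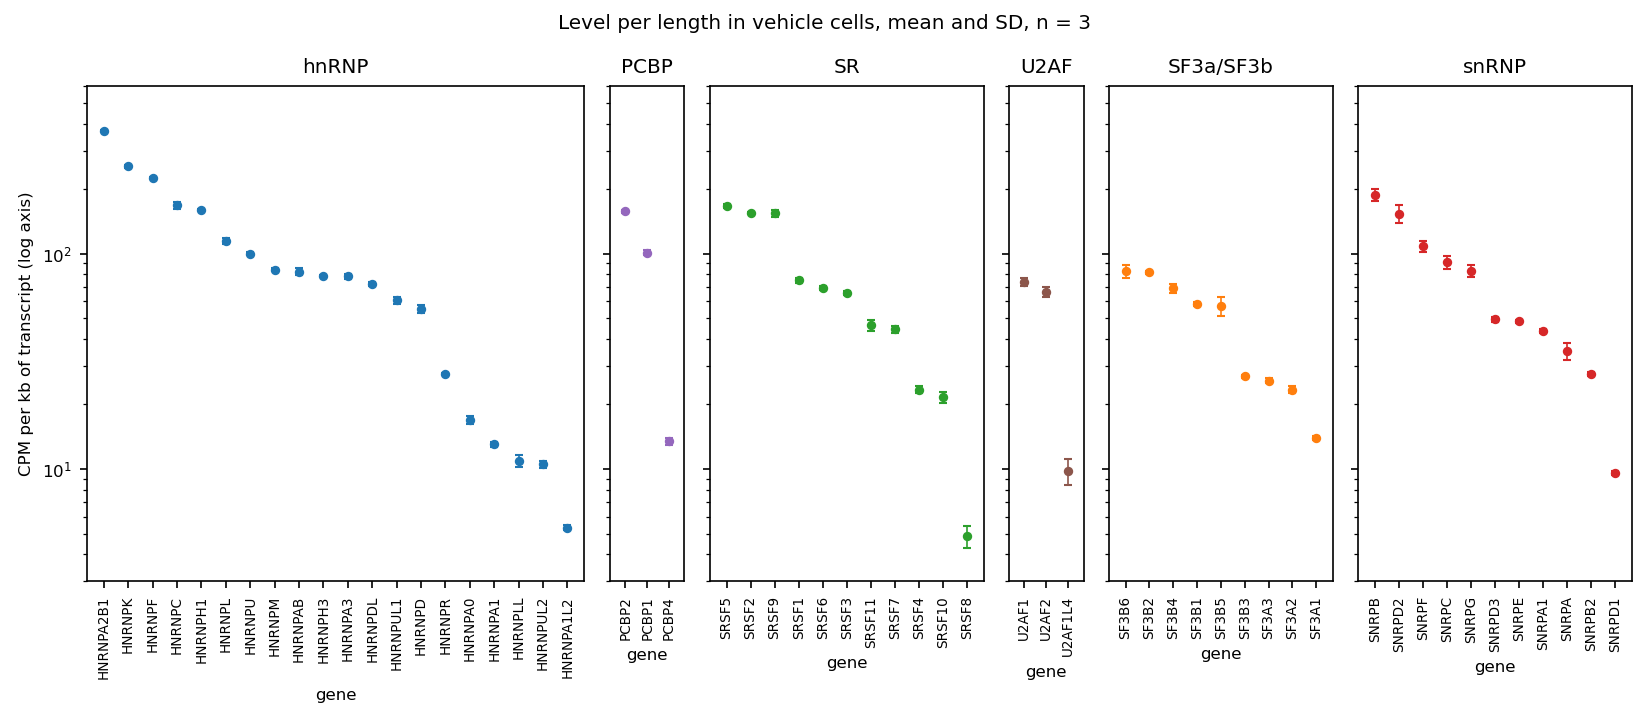
Level of each gene in vehicle cells as CPM per kb of its canonical transcript on a log axis, grouped by family and sorted, with points for the mean and bars for the SD over 3 libraries. The 7 genes with at most 5 counts in any library are not drawn. Levels ran from HNRNPA2B1 at 371 down to SRSF8 at 4.87 CPM per kb.

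The 2 hnRNP genes and 3 others on which the treatment results turn are placed as follows in GRCh37. HNRNPM lies at chr19:8509651-8553998 on the plus strand and encodes an hnRNP that binds GU-rich RNA. HNRNPAB lies at chr5:177631534-177638164 on the plus strand and encodes an A/B-type hnRNP. SNRPB, at chr20:2442280-2451499 on the minus strand, encodes the Sm proteins B and B′. U2AF2, at chr19:56165512-56186082 on the plus strand, encodes the large U2AF subunit, which reads the pyrimidine tract. SNRPA1, at chr15:101821715-101835487 on the minus strand, encodes the A′ protein of U2 snRNP.

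Their promoters are shown because the first 4 genes fell with each agent and SNRPA1 rose with E2, as described next. Each run is 300 bases, 5′ to 3′ on the gene's strand, from 250 bases before to 50 after the RefSeq start in GRCh38.p14. Capitals mark matches, on either strand, to any of 4 short motifs. The box known for binding Sp family factors, called the GC box here, was searched as GGGCGG. The box bound by NF-Y was searched as CCAAT, and the E box, bound by Myc and related factors, was searched as CACGTG. The single arm of the estrogen response element was searched as AGGTCA. The positions are chr19:8444725-8445024, chr5:178204283-178204582, chr20:2470740-2471039, chr19:55654785-55655084 and chr15:101295199-101295498, in the order printed.
HNRNPM: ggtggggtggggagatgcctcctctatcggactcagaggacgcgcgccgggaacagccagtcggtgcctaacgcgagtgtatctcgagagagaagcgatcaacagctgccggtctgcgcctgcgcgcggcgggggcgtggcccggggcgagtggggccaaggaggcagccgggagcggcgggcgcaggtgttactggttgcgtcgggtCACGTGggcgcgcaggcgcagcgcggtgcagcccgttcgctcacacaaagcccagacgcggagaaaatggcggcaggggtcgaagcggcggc
HNRNPAB: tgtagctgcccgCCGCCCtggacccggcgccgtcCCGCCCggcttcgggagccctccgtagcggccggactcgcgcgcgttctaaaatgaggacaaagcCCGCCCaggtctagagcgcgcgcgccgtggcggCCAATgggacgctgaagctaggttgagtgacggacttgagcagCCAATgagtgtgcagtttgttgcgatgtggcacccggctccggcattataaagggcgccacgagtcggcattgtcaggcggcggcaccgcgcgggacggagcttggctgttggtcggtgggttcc
SNRPB: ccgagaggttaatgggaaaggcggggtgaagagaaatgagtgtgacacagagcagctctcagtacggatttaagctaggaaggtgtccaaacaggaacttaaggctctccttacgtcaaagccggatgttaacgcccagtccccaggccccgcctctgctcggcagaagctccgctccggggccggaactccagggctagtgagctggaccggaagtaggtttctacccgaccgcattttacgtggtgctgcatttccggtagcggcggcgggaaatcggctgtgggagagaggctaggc
U2AF2: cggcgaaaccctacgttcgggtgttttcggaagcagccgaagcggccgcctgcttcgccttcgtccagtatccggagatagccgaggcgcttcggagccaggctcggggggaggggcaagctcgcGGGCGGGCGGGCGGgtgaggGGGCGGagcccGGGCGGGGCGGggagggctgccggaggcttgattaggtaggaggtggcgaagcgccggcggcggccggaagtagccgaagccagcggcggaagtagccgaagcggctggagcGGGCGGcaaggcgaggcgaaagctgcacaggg
SNRPA1: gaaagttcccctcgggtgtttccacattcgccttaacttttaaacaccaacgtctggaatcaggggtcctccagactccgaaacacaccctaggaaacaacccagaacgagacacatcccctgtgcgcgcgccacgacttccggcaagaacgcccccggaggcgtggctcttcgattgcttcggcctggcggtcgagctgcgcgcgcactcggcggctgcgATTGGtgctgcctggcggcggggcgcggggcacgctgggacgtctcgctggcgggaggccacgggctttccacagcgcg

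No motif was shared by all 4 genes that fell together. HNRNPM held 1 E box, HNRNPAB 3 GC boxes and 2 CCAAT boxes, U2AF2 7 GC boxes, some overlapping each other, and SNRPB no match. SNRPA1 held 1 CCAAT box, on the other strand. RefSeq gave 84 promoters for 59 of the 64 genes. The full estrogen response element, a palindrome of GGTCA, any 3 bases and TGACC that overlaps the single arm, was in 0 of the 84 and in 0.057% of all 35116 promoters of this length. The single arm was in 9.52% of the members' promoters against 13.8% of all, the GC box in 56% against 45%, the CCAAT box in 36.9% against 34.6% and the E box in 11.9% against 7.26%. The members' promoters were richer in GC, with a median of 62.5% against 58.7%, and 16 members entered with several promoters. The part of this in the shares was not tested. PCBP1 was the 1 gene among those named below for a change with anastrozole that held a single arm, 1 copy. A match is a run of letters and was not tested for binding.

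With anastrozole alone, 5 genes fell against vehicle and none rose: HNRNPM, HNRNPAB, SNRPB, U2AF2 and PCBP1. The falls were small, each to between 0.85 and 0.888 of the vehicle level. The 5 are 8.2% of the 61 genes tested, whereas 2.27% of all 21132 genes were lower and 1.4% higher at the same threshold (edgeR's quasi-likelihood F test, with p adjusted over all genes by Benjamini-Hochberg and under 0.05). Among the 11051 genes that averaged at least 3 on the log2 CPM scale, 4.23% were lower and 2.29% higher. For the count of 0 that rose, edgeR gave 3 genes higher at an unadjusted p under 0.05, and DESeq2 and limma-voom also called 0 higher. With all 12 libraries in 1 fit 1 gene was higher, HNRNPH3 (edgeR adjusted p = 0.021), and without anastrozole c 3 were.

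HNRNPM stood at 206, 208 and 211 CPM in the vehicle libraries and at 167, 186 and 179 CPM with anastrozole. The highest anastrozole library lay well under the lowest vehicle library. The difference was -0.23 ± 0.05 on the log2 scale (SE, 3 against 3 libraries, edgeR adjusted p = 1.7e-04).

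HNRNPAB stood at 151, 140 and 146 CPM with vehicle and at 126, 131 and 116 CPM with anastrozole, without overlap. Its difference was -0.23 ± 0.05 (log2, SE, edgeR adjusted p = 7.4e-04). PCBP1, a single-exon gene whose protein binds C-rich RNA and also carries iron, stood at 169, 177 and 177 CPM and fell to 155, 153 and 156 CPM. The anastrozole libraries lay under all vehicle libraries. The difference was -0.17 ± 0.05 (log2, SE, edgeR adjusted p = 0.019), and was not called without vehicle b, vehicle c, anastrozole a or anastrozole b.

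SNRPB stood at 218, 193 and 199 CPM with vehicle and at 182, 175 and 174 CPM with anastrozole, again without overlap, a difference of -0.20 ± 0.05 (log2, SE, edgeR adjusted p = 0.0026) that was not called without vehicle a or anastrozole b. U2AF2 stood at 150, 134 and 144 CPM against 116, 128 and 134 CPM. Anastrozole c nearly met vehicle b here, and the difference was -0.18 ± 0.05 (log2, SE, edgeR adjusted p = 0.015). It was not called in 5 of the 9 alternative settings, among them edgeR's own filter on low counts, filterByExpr (edgeR adjusted p = 0.063), and DESeq2's test (adjusted p = 0.097), with a range of 0.002 to 0.3 over the 9, nor without vehicle a, vehicle c, anastrozole a or anastrozole b. Its partner U2AF1, which reads the AG at the end of the intron, differed by -0.13 ± 0.06 and did not pass (edgeR adjusted p = 0.27).

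By family, 2 of 21 hnRNP genes, 1 of 4 PCBP genes, 1 of 3 U2AF genes and 1 of 12 snRNP genes fell. Of the SR and SF3 genes, 0 of 12 and 0 of 9 passed the threshold. At an unadjusted p under 0.05 edgeR had 2 SR genes lower and 1 SF3 gene higher, and neither DESeq2 nor limma-voom called one. An offset that removes each library's trend with GC content (the GC offset) called 3 SR genes lower and 0 SF3 genes. Of the 55 better measured genes 39 were lower and 16 higher, with a median of -0.05 (log2) where the median of the 11051 genes was 0.00. All 5 calls were lost with limma-voom. HNRNPM and HNRNPAB passed whichever library was left out. The count was 3 without vehicle a, vehicle c or anastrozole a, 2 without anastrozole b, and 9 without anastrozole c (3 higher, 6 lower). The share of all genes called in these fits is not given. Without anastrozole c the differences of HNRNPM, HNRNPAB, PCBP1, SNRPB and U2AF2 were -0.24, -0.18, -0.18, -0.18 and -0.23 (log2), all past the threshold.

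**Figure D2:**
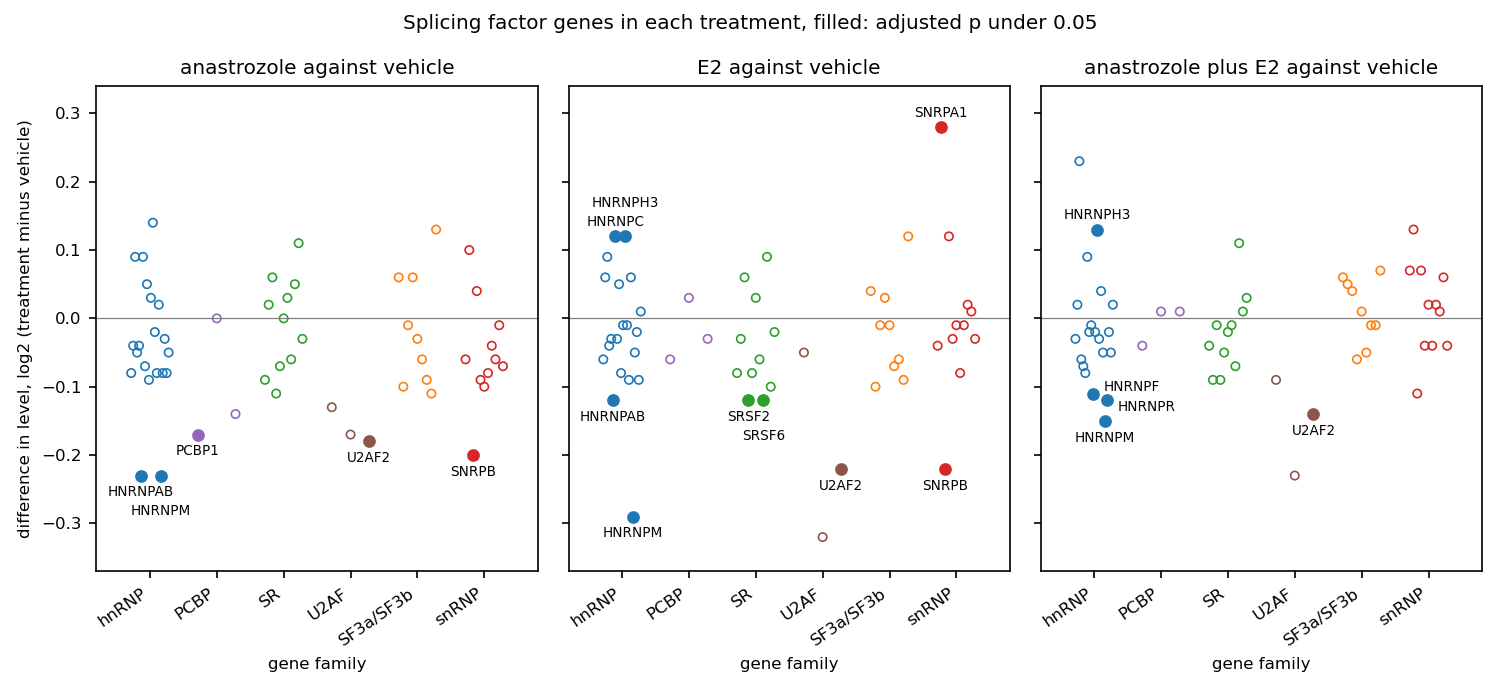
Difference in level (log2, treatment minus vehicle) of the 57 genes with more than 5 counts in some library, by family, in 3 panels for anastrozole, E2 and both. Filled points with names passed the adjusted threshold of 0.05. HNRNPM is filled and negative in all 3 panels, at -0.23, -0.29 and -0.15.

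E2 alone moved more of these genes: 6 fell and 3 rose. HNRNPM, SNRPB, U2AF2 and HNRNPAB fell, as did the SR protein genes SRSF2 and SRSF6, while SNRPA1, HNRNPC and HNRNPH3 rose. E2 also changed many more genes in general, so 9.84% of the 61 genes fell where 5.95% of all genes were lower, and 4.92% rose where 6.06% of all were higher. Among the 11051 better measured genes 11% were lower and 10.5% higher. In this fit the share of members that fell was thus near the background and the share that rose under it. With the GC offset 15 of the 61 fell and 1 rose, where 3.46% of all genes were lower and 3.78% higher. The share of the better measured genes is not given for this setting, so these counts are not compared with genes of like level. E2 and anastrozole were both compared with the same 3 vehicle libraries.

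HNRNPM fell to 174, 174 and 165 CPM with E2, under all vehicle libraries. Its anastrozole range of 167 to 186 CPM overlapped the E2 range. The difference was -0.29 ± 0.04 (log2, SE, edgeR adjusted p = 8.0e-13), or 0.819 of the vehicle level. It passed under all 9 alternative settings, with adjusted p between 3.4e-13 and 0.002, and whichever library was left out. SNRPB fell to 174, 167 and 184 CPM, below its 3 vehicle libraries, a difference of -0.22 ± 0.04 (log2, SE, edgeR adjusted p = 2.3e-07). U2AF2 stood at 122, 122 and 123 CPM, a narrow range under the vehicle libraries, a difference of -0.22 ± 0.04 (log2, SE, edgeR adjusted p = 3.3e-06). HNRNPAB was less clear, at 125, 140 and 137 CPM, with E2 b close to the lowest vehicle library. Its difference of -0.12 ± 0.04 (log2, SE, edgeR adjusted p = 0.027) was not called without vehicle a, vehicle c or E2 a. It was also not called in 6 of the 9 alternative settings, among them DESeq2's test, limma-voom and the GC offset.

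SNRPA1 was the only snRNP gene called higher with E2, as SNRPB was the only snRNP gene called lower. SNRPA1 stood at 47, 46.2 and 45 CPM with vehicle and at 57.5, 52.5 and 57.8 CPM with E2. All E2 libraries lay above all vehicle libraries, and the rise was 0.28 ± 0.06 (log2, SE, edgeR adjusted p = 3.9e-05), or 1.21-fold. This call held under all 9 alternative settings and with each library left out. PCBP1, at 171, 165 and 165 CPM with E2, overlapped its vehicle range of 169 to 177 and did not pass (-0.06 ± 0.04, log2, edgeR adjusted p = 0.35).

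Both SR genes called with E2 fell. SRSF2, which encodes the SR protein also known as SC35, went from 295, 289 and 294 CPM to 266, 271 and 269 CPM, -0.12 ± 0.03 on the log2 scale (SE, edgeR adjusted p = 0.0043). SRSF6 went from 306, 302 and 293 CPM to 282, 268 and 277 CPM, -0.12 ± 0.03 (log2, SE, edgeR adjusted p = 0.0042). In both genes the E2 libraries lay under all vehicle libraries. SRSF6 was not called without E2 b. With the GC offset SRSF2 stayed at -0.12 and SRSF6 went to -0.20, and the difference between the genes was not tested.

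The rises of HNRNPC, which binds uridine tracts and competes with U2AF2 for them, and of HNRNPH3, of the G-tract binding H/F group, were of the same size. HNRNPC went from 555, 525 and 518 CPM to 581, 574 and 579 CPM, 0.12 ± 0.03 on the log2 scale (SE, edgeR adjusted p = 0.0022). HNRNPH3 went from 186, 182 and 187 CPM to 199, 199 and 207 CPM, 0.12 ± 0.04 (log2, SE, edgeR adjusted p = 0.0097). Neither gene's groups overlapped. HNRNPC was not called without vehicle c, and HNRNPH3 was not called without E2 c. With the GC offset both rises shrank to 0.04 and were not called. U2AF1L4 had the most negative difference of the tested genes drawn, -0.32 ± 0.14, but with 5.67 to 8.57 CPM it did not pass (edgeR adjusted p = 0.14). It is named here after its value was seen.

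With anastrozole and E2 together, 4 genes fell and 1 rose against vehicle. HNRNPM, U2AF2, HNRNPF and HNRNPR fell, and HNRNPH3 rose. The fallen genes are 6.56% of the 61, against 2.33% of all genes lower, and the risen gene is 1.64%, against 2.71% of all genes higher. In the 11051 better measured genes the shares were 4.27% lower and 4.1% higher. All SR and SF3 genes, and all snRNP and PCBP genes, stayed short of the threshold in this fit, with 4 SR genes, 2 snRNP genes and 0 SF3 or PCBP genes at an unadjusted p under 0.05 in edgeR and 0 in these families called by DESeq2 or limma-voom.

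HNRNPM stood at 189, 189 and 187 CPM, under all vehicle libraries and over all libraries with a single agent. The difference from vehicle was -0.15 ± 0.04 (log2, SE, edgeR adjusted p = 0.0047). U2AF2 stood at 138, 123 and 127 CPM and overlapped the vehicle range, with -0.14 ± 0.04 (log2, SE, edgeR adjusted p = 0.019). HNRNPF, a G-tract binding hnRNP, went from 583, 579 and 573 CPM to 534, 540 and 530 CPM without overlap, -0.11 ± 0.03 (log2, SE, edgeR adjusted p = 0.018).

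HNRNPR, an hnRNP related to SYNCRIP, went from 216, 213 and 212 CPM to 202, 192 and 195 CPM, also without overlap, -0.12 ± 0.04 (log2, SE, edgeR adjusted p = 0.035). HNRNPH3 rose to 207, 199 and 201 CPM, above all vehicle libraries, by 0.13 ± 0.04 (log2, SE, edgeR adjusted p = 0.021). SNRPB, at 199, 183 and 182 CPM, overlapped vehicle and did not pass (-0.11 ± 0.04, edgeR adjusted p = 0.056), but was called in 4 of the 9 alternative settings, where adjusted p ran from 0.0066 to 0.39. HNRNPAB, at 140, 135 and 137 CPM, and PCBP1, at 171, 173 and 163 CPM, also did not pass, with -0.08 ± 0.04 (edgeR adjusted p = 0.28) and -0.04 ± 0.04 (edgeR adjusted p = 0.69).

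The 5 calls became 2 under DESeq2's test and under limma-voom, and 7 with the GC offset. They became 3 without vehicle a, 0 without vehicle c, 2 without combination b and 1 without combination c. HNRNPM and HNRNPF passed under all 9 alternative settings. U2AF2 and HNRNPR passed under 6 of them and HNRNPH3 under 7, each lost with DESeq2's test and limma-voom. HNRNPM was not called without vehicle c. HNRNPF, U2AF2 and HNRNPR were not called without vehicle a, vehicle c, combination b or combination c, and HNRNPH3 was not called without vehicle b, vehicle c, combination a or combination c.

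**Figure D3:**
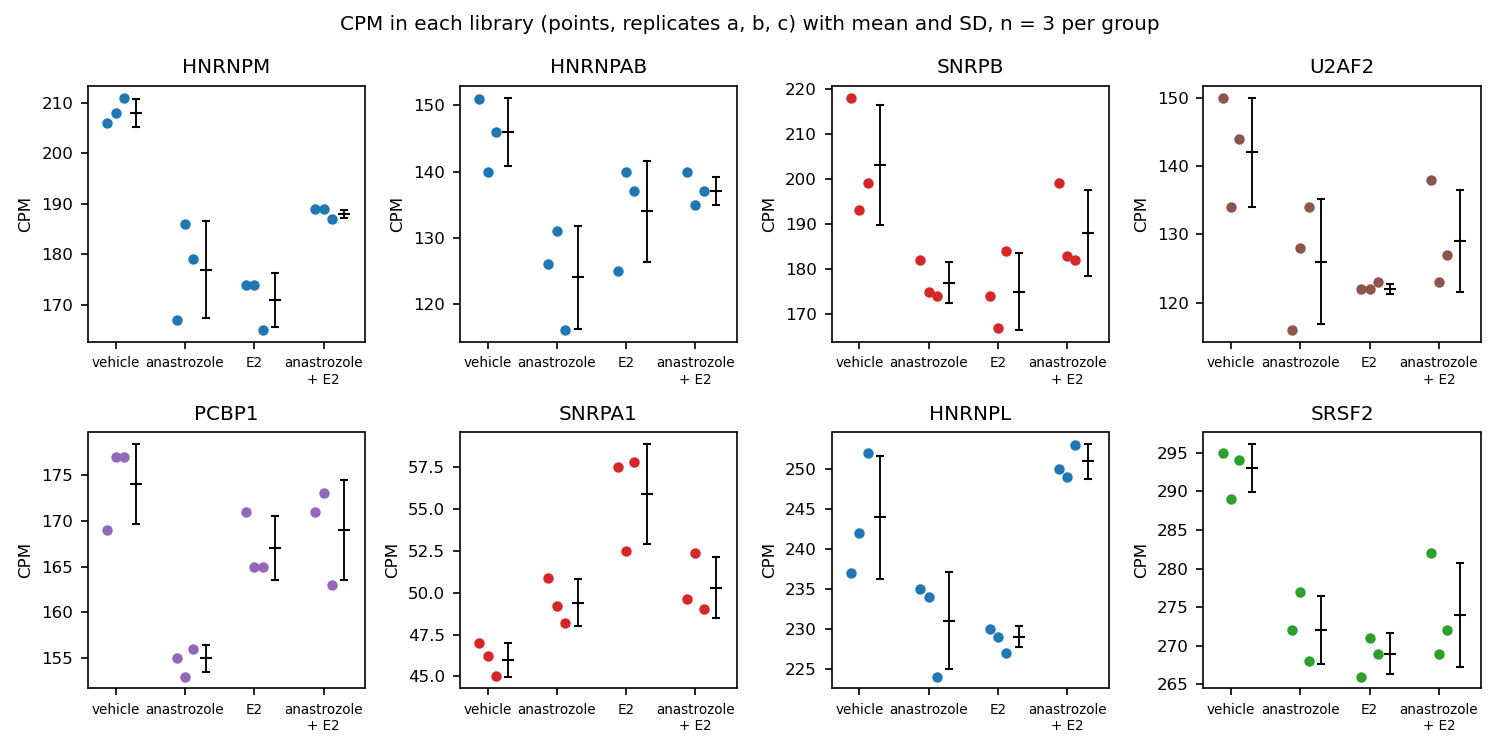
CPM of 8 genes in each library, with points for replicates a, b and c in each group and, beside them, the mean and SD of the 3 libraries; the vertical axes do not begin at 0. HNRNPM separates vehicle (206 to 211 CPM) from every other group, and SNRPA1 is highest with E2 (52.5 to 57.8 CPM).

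The groups with 1 agent were then compared directly. Between anastrozole and E2 none of the 61 genes passed, where 1.33% of all genes and 2.38% of the better measured ones did. At an unadjusted p under 0.05 edgeR had 5 genes, and DESeq2 and limma-voom called 0. Without anastrozole c, 1 gene was higher. Differences in this comparison ran from -0.17 for SNRPA1 to 0.22 for SRSF8, and a p that misses the threshold does not show equal levels. PCBP1 and HNRNPAB, at -0.10 ± 0.04 each (log2, SE, anastrozole minus E2), had edgeR adjusted p of 0.33 and 0.38.

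Adding anastrozole to E2 raised HNRNPM, HNRNPL and SNRPB and lowered SF3B1. These are 4.92% and 1.64% of the 61 genes, against 3.23% of all genes higher and 3.51% lower, and under the 5.88% and 6.62% of the better measured genes. HNRNPM rose from 174, 174 and 165 CPM to 189, 189 and 187 CPM, 0.14 ± 0.03 on the log2 scale (SE, edgeR adjusted p = 0.0019). HNRNPL, which binds CA repeats, rose from 230, 229 and 227 CPM to 250, 249 and 253 CPM, 0.13 ± 0.03 (log2, SE, edgeR adjusted p = 0.0021). Both genes' groups were apart. HNRNPL passed whichever library was left out, and HNRNPM was not called without E2 c.

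SNRPB, at 199, 183 and 182 CPM against 174, 167 and 184 CPM, rose by 0.10 ± 0.03 (log2, SE, edgeR adjusted p = 0.037) with overlapping groups. It was called in 3 of the 9 alternative settings, where adjusted p ran from 0.021 to 0.91, and not without E2 a, E2 b or combination a. SF3B1, the branch point subunit that is recurrently mutated in cancers, went from 384, 383 and 386 CPM to 348, 369 and 365 CPM, -0.09 ± 0.03 (log2, SE, edgeR adjusted p = 0.045). This last call was lost whichever library was left out. The 4 calls became 2 without E2 a or E2 c, with DESeq2's test and with limma-voom.

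Adding E2 to anastrozole gave no call among the 61 genes, against 2.9% of all genes and 5.23% of the better measured ones. At an unadjusted p under 0.05 edgeR had 5 genes, 3 higher and 2 lower, and DESeq2 and limma-voom called 0. Without anastrozole c there were 5 calls, 2 higher and 3 lower, and the share of all genes called in that fit is not given.

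Whether the effect of anastrozole changed with E2 was tested as the interaction, the difference with anastrozole in the presence of E2 minus that in its absence, over all 12 libraries. It was positive for HNRNPM, SNRPB, HNRNPAB, U2AF2, HNRNPL and PCBP1 and negative for SNRPA1 and SF3B1, 6 and 2 of 61 genes, or 9.84% and 3.28%. Of all genes tested 5.93% had a positive and 4.93% a negative interaction past the threshold, and among the better measured genes 10.9% and 8.99%. In this fit the members' shares were thus not above those of well measured genes. With the GC offset 11 of the 61 were positive and 0 negative, where 507 of all 21132 genes were called in either direction. The members' share was then above that of all genes, and the share of the better measured genes is not given for this setting.

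In HNRNPM the difference with anastrozole was -0.23 without E2 and 0.14 with it, an interaction of 0.38 ± 0.06 (log2, SE, edgeR adjusted p = 2.7e-08). In SNRPB the pair was -0.20 and 0.10, an interaction of 0.30 ± 0.06 (edgeR adjusted p = 1.6e-05). HNRNPAB had -0.23 and 0.03, an interaction of 0.27 ± 0.06 (edgeR adjusted p = 5.6e-04). Anastrozole alone lowered these 3 genes from vehicle. Added to E2, it raised HNRNPM, a call kept in 7 of the 9 alternative settings and lost with the GC offset and without E2 c. The rise of SNRPB was lost in 6 of the 9 alternative settings, and HNRNPAB was short of the threshold.

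U2AF2 had -0.18 and 0.08, an interaction of 0.26 ± 0.06 (edgeR adjusted p = 7.3e-04). HNRNPL had -0.08 and 0.13, an interaction of 0.21 ± 0.06 (edgeR adjusted p = 0.0026), and was highest in the combination, at 249 to 253 CPM, with vehicle at 237 to 252. These 5 interactions passed whichever of the 12 libraries was left out. With the GC offset those of HNRNPM and HNRNPAB stayed called, and those of SNRPB (0.14), U2AF2 (0.07) and HNRNPL (0.13) were lost.

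PCBP1 (0.19 ± 0.06, edgeR adjusted p = 0.018), SNRPA1 (-0.25 ± 0.09, edgeR adjusted p = 0.033) and SF3B1 (-0.15 ± 0.05, edgeR adjusted p = 0.04) passed in 6, 5 and 3 of the 12 fits that each left out 1 library. They were also lost with the GC offset. The 8 calls became 14 without anastrozole c (8 positive, 6 negative) and 5 without vehicle c, anastrozole b, E2 c or combination a. Shares of all genes called in these fits are not given.

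**Figure D4:**
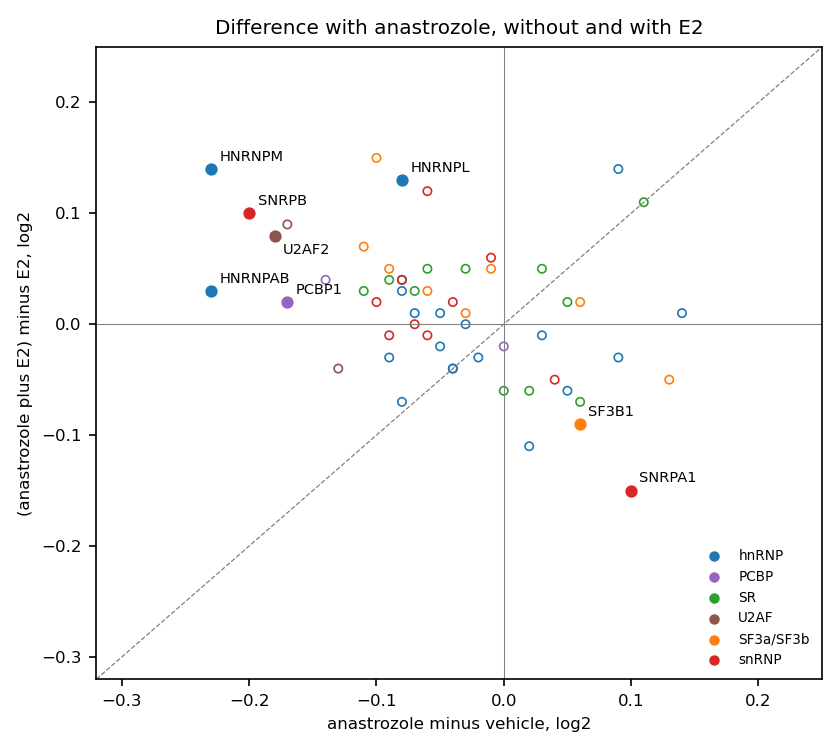
Difference with anastrozole without E2 (horizontal, log2) against that with E2 (vertical, log2) for 57 genes, coloured by family; the dashed line marks equal differences, and filled, named points passed the interaction test. HNRNPM, SNRPB, U2AF2, HNRNPAB, HNRNPL and PCBP1 lie left of 0 and above the line, SNRPA1 and SF3B1 to the right and below it.

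The direction of many of these differences went with transcript GC content. Across the 55 genes the rank correlation of the difference with GC was -0.49 for anastrozole, -0.43 for E2, 0.03 for the combination against vehicle and 0.62 for the interaction. Across 10861 genes of the table it was -0.55, -0.56, -0.03 and 0.72, and genes are not independent replicates. The 5 genes that fell with anastrozole have a GC content of 53.09% (HNRNPM), 54.12% (HNRNPAB), 54.89% (PCBP1), 58.23% (SNRPB) and 60.48% (U2AF2), above the median of 45.0% of the 55 genes. SNRPA1 has 46.2%.

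When each library's trend with GC was removed by an offset, HNRNPM fell by 0.20 with anastrozole, 0.25 with E2 and 0.14 with both, and its interaction was 0.31 (log2), all past the threshold. HNRNPAB kept its call with anastrozole (-0.19) and its interaction (0.18), and lost that with E2 (-0.07). U2AF2 went from -0.18 to -0.09 with anastrozole and from 0.26 to 0.07 in the interaction, and both calls were lost. With E2 it went from -0.22 to -0.11 and with both from -0.14 to -0.13, and these stayed called. SNRPB stayed called with each agent alone (-0.12 and -0.13), and its interaction went from 0.30 to 0.14 and was lost. PCBP1 stayed called with anastrozole (-0.12), and its interaction (0.09) was lost, as were those of HNRNPL, SNRPA1 and SF3B1. SNRPA1 stayed called with E2 (0.25), and the rises of HNRNPC and HNRNPH3 with E2 shrank to 0.04 each and were lost.

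The GC offset also changed the counts of calls. The count was 0 higher and 11 lower with anastrozole in place of 0 and 5, 1 higher and 15 lower with E2 in place of 3 and 6, 2 higher and 5 lower with both in place of 1 and 4, and 11 positive and 0 negative in the interaction in place of 6 and 2. Of all genes, the offset called 1.52% higher and 1.44% lower with anastrozole, 3.78% and 3.46% with E2, and 3.36% and 2.65% with both, and it called 507 of 21132 interactions in either direction. Shares of the better measured genes are not given with the offset, so the members' counts are not compared with genes of like level. The offset was fitted over all genes and left the rank correlation with GC near 0 there, but among the 55 genes the slope was then of the other sign, at 0.20 with anastrozole, 0.36 with E2, -0.37 in the interaction and -0.50 in the addition of anastrozole to E2 (0.59 without the offset). The additions with anastrozole were HNRNPA2B1, HNRNPA3, HNRNPF, HNRNPR, SRSF1, SRSF3 and SRSF6, named here after their values were seen. SRSF1, with 38.72% GC, stood at 392, 410 and 400 CPM with vehicle, 384, 385 and 363 with anastrozole, 379, 375 and 386 with E2 and 391, 396 and 386 with both. Without overlap between either agent and vehicle, its differences were -0.09 and -0.08 (log2), short of the threshold, and became -0.15 and -0.16 with the offset and past it. None of the 4 calls in the addition of anastrozole to E2 remained with the offset, where HNRNPM went from 0.14 to 0.11, HNRNPL from 0.13 to 0.09, SNRPB from 0.10 to 0.03 and SF3B1 from -0.09 to -0.02. It called SRSF1 and SRSF6 higher there (0.13 each), where it called 0.398% of all genes higher and 0.383% lower. Whether GC content of the libraries or the treatments set these differences was not tested.

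**Figure D5:**
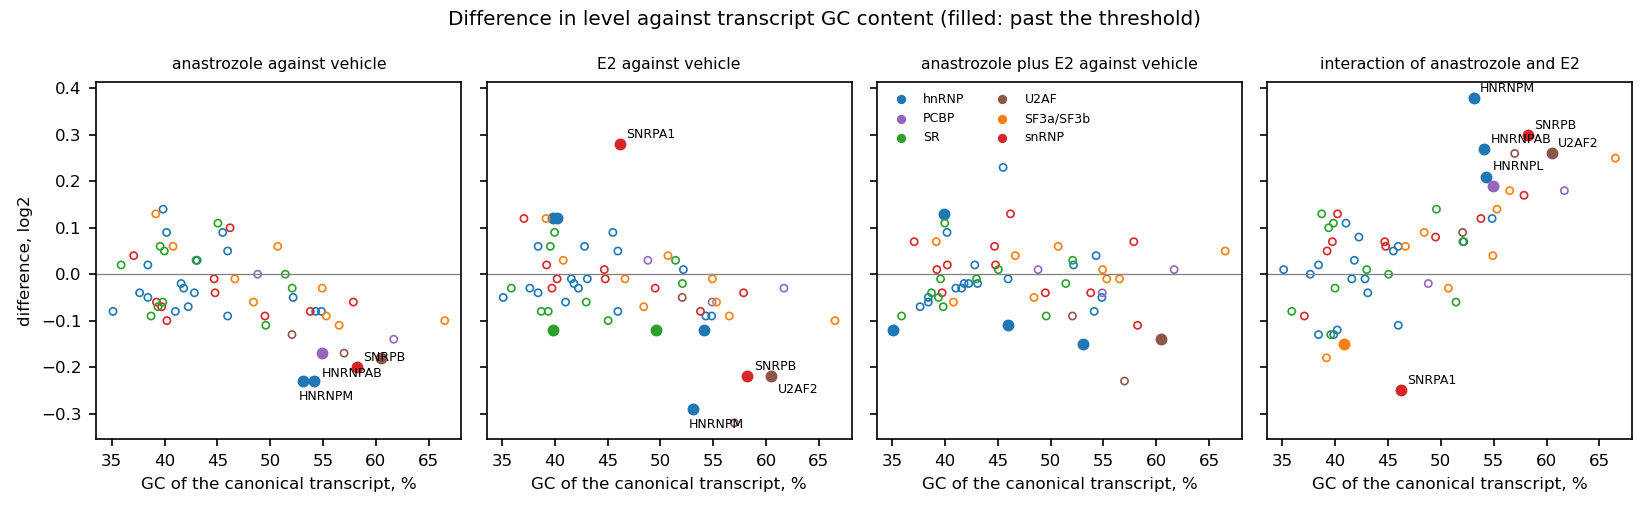
Difference in level (log2) against the GC content of the canonical transcript (percent) for 57 genes, coloured by family, in 4 panels for the 3 comparisons with vehicle and the interaction; filled points passed the threshold. GC-rich genes lie low with anastrozole and with E2 and high in the interaction (rank correlations -0.49, -0.43 and 0.62 over 55 genes), with no such slope for the combination (0.03).

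A list of 126 other splicing genes, chosen by role, was examined beside these families, of which 124 were tested. With anastrozole 4 rose and 5 fell, with E2 12 rose and 18 fell, and with both 1 rose and 7 fell. In the addition of anastrozole to E2 9 rose and 7 fell, and 17 interactions were positive and 11 negative. In percent of the 124, 3.23% rose and 4.03% fell with anastrozole, 9.68% and 14.5% with E2 and 0.806% and 5.65% with both, beside 2.29% and 4.23%, 10.5% and 11%, and 4.1% and 4.27% of the better measured genes. In the addition of anastrozole to E2 the shares were 7.26% and 5.65% beside 5.88% and 6.62%, and in the interaction 13.7% and 8.87% beside 10.9% and 8.99%. With the GC offset described above the counts were 4 and 6, 5 and 17, 1 and 7, 1 and 0, and 6 and 3 in the same order.

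SFPQ, a paraspeckle protein gene, fell with each treatment, by 0.20, 0.27 and 0.16 on the log2 scale (edgeR adjusted p = 0.0023, 1.5e-11 and 7.5e-04). PUF60, which acts beside U2AF2 at the pyrimidine tract, fell by 0.23 with anastrozole and by 0.22 with E2 (edgeR adjusted p = 8.1e-04 and 6.4e-06). With both agents it differed by -0.06, and this did not pass. With the GC offset its differences with the single agents were -0.13 and -0.11, still past the threshold. LUC7L3, a U1-associated factor gene, went the other way. It rose from 665, 687 and 686 CPM to 811, 793 and 749 with anastrozole and 776, 753 and 776 with E2, by 0.21 ± 0.04 and 0.18 ± 0.03 (log2, SE, edgeR adjusted p = 1.5e-04 and 1.4e-07), which became 0.14 and 0.08 with the GC offset and stayed past the threshold. SON and DHX9 fell with both agents together, by 0.14 and 0.15 (edgeR adjusted p = 0.0012 and 0.0013). With E2 alone each differed by -0.09 (edgeR adjusted p = 0.038 and 0.049), a call kept in 1 of 6 fits that left out a library. With anastrozole alone neither passed, though DHX9 did with the GC offset (-0.16).

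Some of these genes share bases with neighbours, and the strand setting of the counting is not given in the sources used here. PCBP1-AS1 covers 73.2% of the PCBP1 transcript on the opposite strand. With 16 to 51 counts per library it did not pass in any comparison. MFSD11 shares 30.1% of the SRSF2 transcript's bases on the opposite strand and fell with E2 by 0.23 (log2, edgeR adjusted p = 5.3e-06), so the fall of SRSF2 with E2 cannot be told apart from one of its neighbour if strand was not used. PHYKPL covers 11.1% of the HNRNPAB transcript on the opposite strand, at 18.2 to 25.1 CPM, and did not pass in any comparison. MAP3K12 shares 47.3% of the PCBP2 transcript's bases, GATC 42.6% of those of SRSF9 and NFE2L2 59.8% of those of HNRNPA3, all on the opposite strand. On the same strand, HNRNPUL2-BSCL2 shares 45.9% of the HNRNPUL2 transcript's bases, so the counts of HNRNPUL2 may be too low, which was not tested. No other gene of the table overlaps the canonical transcripts of HNRNPM, SNRPB, U2AF2 or SNRPA1.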

How the data were processed

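RNA of 12 T47D libraries (4 groups of 3) was sequenced. The authors aligned reads to hg19 and counted them per gene, and deposited whole-number counts without normalization. The submitters' processing notes name TopHat2 2.0.14, Bowtie2 2.2.6 and HTSeq. HTSeq's version, strand setting and annotation are not given in the sources used here. Libraries came from the NuGEN Encore kit, labelled as polyA RNA. Reads on genes were 32.7 to 33.5% of each library's total. The 5 summary lines (no feature 58.6 to 59.9%, not unique 6.6 to 7.4%, ambiguous 0.572 to 0.604%) stayed out of library sizes and tests.

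Groups, doses and replicate letters came from the labels. The 4238 genes without a count in any library were dropped. A comparison of 2 groups used their 6 libraries, and the interaction all 12, in edgeR 4.0.16 in R 4.3.3 (TMM, robust quasi-likelihood F test, 2-sided, Benjamini-Hochberg over 21132 genes, threshold 0.05); SEs are those of the fitted log2 difference. CPM used TMM-scaled library sizes. The quasi-likelihood test was tested on simulated data, whose outcome is not given here and is not used to support the p-values. Length, GC and overlaps came from the canonical transcripts of GENCODE lifted to GRCh37, whose chromosome lengths match hg19; GC was known for 98.3% of the 11051 genes that averaged at least 3 on the log2 CPM scale. Counts limit precision to counting error plus replicate spread.

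Alternatives were DESeq2 size factors, library size alone, filterByExpr, DESeq2 1.42.0, limma-voom (limma 3.58.1), all 12 libraries in 1 fit, a replicate block, a GC offset (lowess span 0.5), both, and leaving out each library. Genes were named by rule: HNRNPAB and PCBP1, the 10 members lowest in adjusted p past the threshold for each treatment against vehicle, 5 for each other comparison and the interaction, the highest per length in each family, and 3 genes per treatment from a list of other splicing genes. A gene that this rule names from that list is not reported here. Members and lists were chosen with earlier results of these data known.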

Additional observations from a re-analysis of the deposited data

Results flagged for a closer look

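In 8 genes the difference with anastrozole was not the same with and without E2, by edgeR's interaction test over 12 libraries. These are 6 positive (9.84%) and 2 negative (3.28%) of 61 genes, beside 5.93% and 4.93% of all genes and 10.9% and 8.99% of the better measured ones. The difference with E2 minus that without was 0.38 in HNRNPM, 0.30 in SNRPB, 0.27 in HNRNPAB, 0.26 in U2AF2, 0.21 in HNRNPL and 0.19 in PCBP1 on the log2 scale, and -0.25 in SNRPA1 and -0.15 in SF3B1. With the GC offset the interactions of HNRNPM (0.31) and HNRNPAB (0.18) stayed past the threshold, and those of SNRPB (0.14), U2AF2 (0.07), HNRNPL (0.13), PCBP1 (0.09), SNRPA1 (-0.20) and SF3B1 (-0.03) did not. In that setting 11 of the 61 genes were positive and 0 negative, where 507 of all 21132 genes were called in either direction. The share of the better measured genes is not given there. The part of GC content in these values was not tested beyond this offset.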

How the results depend on the processing

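None of the 31 called differences changed sign under any setting run. Differences that were not called did change sign with the GC offset, among them those of U2AF2 and HNRNPAB in the addition of anastrozole to E2, from 0.08 and 0.03 to -0.01 each. The count of members past the threshold was 5 with anastrozole, 9 with E2, 5 with both, 0 for anastrozole against E2, 4 for adding anastrozole to E2, 0 for adding E2 to anastrozole and 8 for the interaction. With limma-voom it was 0 for anastrozole, 2 for both and 2 for adding anastrozole to E2; DESeq2's test gave 2 and 2 for the last 2 of these. With the GC offset it was 11, 16 and 1 for anastrozole, E2 and anastrozole against E2, 2 for adding anastrozole to E2 and 1 for adding E2 to anastrozole. The GC offset with the replicate block gave 12, 16, 10, 1, 2 and 1 for the 6 pairs in the order above. All 12 libraries in 1 fit gave 2 for adding anastrozole to E2 and 2 for adding E2 to anastrozole, and library size alone gave 1 for the latter. Leaving out 1 library gave 2 to 9, 7 to 13, 0 to 5, 0 to 1, 2 to 3, 0 to 5 and 5 to 14, without a share of all genes for comparison. The causes were not tested. The replicate block alone gave 5, 8, 9, 0, 4, 0 and 8, with HNRNPA2B1, HNRNPC, SNRPB and SRSF2 added for both agents and HNRNPAB lost with E2 (adjusted p = 0.051 in edgeR, 0.02 to 0.31 over the 9 settings); correlations of same-lettered deviations ran from -0.16 to 0.33 over the pairs, so the letters were not taken to pair the libraries. Of 31 called differences, 31 kept their call with DESeq2 size factors, 30 with library size alone, 30 with the block, 28 with filterByExpr, 23 with DESeq2's test, 19 with limma-voom and 17 with the GC offset. A gene short of the threshold may still differ by less than this depth and spread can show.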
